A study of Mus musculus with 4 samples.

Results

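Cells that carried transcripts of Pax2 together with at least 1 of Neurod1, Neurod6, Nanos1, Nhlh2 and Scx were described among sorted cells of the mouse cerebellum at E15.5, a day of embryonic development at which the progenitors of inhibitory neurons are dividing. A cell was taken when it had at least 500 detected genes, at most 10% mitochondrial UMIs (unique molecular identifiers, each counting 1 captured transcript), at least 2 Pax2 UMIs, at least 1 UMI summed over the 5 second genes, and at most 2 UMIs summed over 6 genes of dividing cells (Mki67, Top2a, Cenpf, Ube2c, Ccnb1 and Nusap1). This gave 2210 of 24856 kept cells, of which 778 and 599 came from En1/2 CKO replicates 1 and 2, against 699 and 134 from control replicates 1 and 2. En1/2 CKO embryos were homozygous for floxed alleles of both Engrailed genes, En1lox/lox and En2lox/lox, in the Ptf1aCre/+ and R26LSL-tdT/+ background, and control embryos had the same background (Ptf1aCre/+; R26LSL-tdT/+) with no floxed Engrailed allele. Cre is thus made, and the tdTomato reporter switched on, in Ptf1a-expressing cells of both genotypes. Each library came from cerebella of pooled embryos from which tdTomato-positive cells were sorted, so that a library, not an embryo, is the replicate (n = 2 per genotype). Libraries were made with 10x Genomics 3' v3.1 chemistry. The question was how these cells differ with loss of the Engrailed genes in the Ptf1a lineage.

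Ptf1a is the basic helix-loop-helix (bHLH) factor that directs progenitors of the cerebellar ventricular zone to GABAergic fates. Pax2 is a paired-box factor that marks precursors of inhibitory interneurons as they leave the cell cycle and while they migrate through the cerebellum. Nhlh2, Neurod1 and Neurod6 are bHLH factors of differentiating neurons, Nanos1 encodes an RNA-binding translational repressor, and Scx is a bHLH factor best known from tendon. En1 and En2 are homeobox factors needed for the patterning and growth of the midbrain and cerebellum. Neuronal bHLH factors bind the E-box, CANNTG, as dimers with widely expressed bHLH partners.

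The 6 genes lie on 5 mouse chromosomes in the GRCm38 build (GENCODE vM21). Pax2 lies on chromosome 19 from 44756045 to 44837871 and Nanos1 on the same chromosome from 60755987 to 60759914. Nhlh2 lies on chromosome 3 from 102010076 to 102015492, Neurod1 on chromosome 2 from 79452521 to 79456751, Neurod6 on chromosome 6 from 55677822 to 55681263, and Scx on chromosome 15 from 76457452 to 76459458. RefSeq promoter windows on GRCm38.p6 were found for 5 of the 6 genes. The 250 bases before the RefSeq transcription start are shown for the 4 second genes with a window. Part of the Nhlh2 and Neurod1 windows lies inside the GENCODE gene given above. The windows are shown because 3 of these 4 genes encode bHLH factors and the E-box is the letters such factors read. They are written 5′ to 3′ on the gene's strand, with each CANNTG in capitals. The Nhlh2 window is chr3:102009895-102010144 on the plus strand, that of Neurod1 chr2:79456637-79456886 on the minus strand, that of Neurod6 chr6:55681264-55681513 on the minus strand and that of Nanos1 chr19:60755737-60755986 on the plus strand.
Nhlh2: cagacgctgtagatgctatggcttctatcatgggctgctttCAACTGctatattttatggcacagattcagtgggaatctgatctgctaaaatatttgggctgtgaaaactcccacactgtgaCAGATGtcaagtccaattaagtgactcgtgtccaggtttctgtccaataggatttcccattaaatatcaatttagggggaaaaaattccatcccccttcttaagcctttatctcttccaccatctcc
Neurod1: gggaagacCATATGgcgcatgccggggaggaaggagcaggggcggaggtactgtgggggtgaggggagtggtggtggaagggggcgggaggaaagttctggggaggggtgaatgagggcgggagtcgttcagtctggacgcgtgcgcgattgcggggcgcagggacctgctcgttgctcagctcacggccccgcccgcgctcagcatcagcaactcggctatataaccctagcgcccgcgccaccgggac
Neurod6: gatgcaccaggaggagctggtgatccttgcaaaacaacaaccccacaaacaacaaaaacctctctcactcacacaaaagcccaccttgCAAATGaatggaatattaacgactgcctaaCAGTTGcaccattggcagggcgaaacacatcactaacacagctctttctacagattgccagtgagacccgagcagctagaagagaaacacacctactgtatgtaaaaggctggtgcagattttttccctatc
Nanos1: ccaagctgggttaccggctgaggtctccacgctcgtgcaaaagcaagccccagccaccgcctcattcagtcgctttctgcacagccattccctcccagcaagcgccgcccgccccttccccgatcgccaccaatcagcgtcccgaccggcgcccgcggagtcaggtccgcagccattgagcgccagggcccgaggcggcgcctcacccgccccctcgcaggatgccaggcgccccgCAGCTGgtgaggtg
CANNTG, which reads alike on both strands, occurred in all 4 windows, and it also occurred in 66.2% of the 32851 windows of the same length in the table. Nhlh2 held CAGATG (with its reverse complement CATCTG in 14.4% of all windows), Neurod1 held CATATG (in 3.46%) and Nanos1 held CAGCTG (in 4271 windows). These matches describe the letters only.

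Outside control replicate 1, the second gene separated few Pax2 cells from the rest. Of the non-dividing cells with at least 2 Pax2 UMIs, 96.5% and 88.5% in the En1/2 CKO libraries met the rule, against 74.7% and 94.4% in the controls, and those that did not numbered 28 and 78, against 237 and 8. They were shallow cells, with median depths of 1137 and 1027 UMIs in the En1/2 CKO libraries and 1227 and 1312 UMIs in the controls. Among cells of at least 2000 UMIs the rule took 98.9% and 98.7% of the En1/2 CKO Pax2 cells, against 92.0% and 98.3% of the control ones. The selected cells are therefore called Pax2 cells here, and the second genes are given as a set of which nearly every deeply read Pax2 cell carried at least 1.

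Depth differed between the libraries and the rule depends on it. The median Pax2 cell had 4396.5 and 4313 UMIs in the En1/2 CKO libraries, against 1440 and 2530 UMIs in the controls, and the summed Pax2 cells held 3700985 and 2564165 UMIs, against 1334859 and 348637. Control replicate 1 stood apart in RNA composition. Malat1, a nuclear long non-coding RNA, was at 30529 and 26757 CPM (UMIs of the gene scaled to 1000000 UMIs in the summed cells) in the Pax2 cells of the En1/2 CKO libraries, against 90374 and 36545 CPM in the controls, and ribosomal protein genes took 9.56% and 9.30% of UMIs, against 5.03% and 8.51%. The mitochondrial share was 2.75% and 2.90%, against 2.98% and 5.44%. Pairs of libraries shared 1 to 22 kept cell barcodes, and 1 barcode belonged to a Pax2 cell in both controls. Scrublet, a doublet caller, placed 10.2% and 12.2% of the En1/2 CKO Pax2 cells, against 11.2% and 1.49% of the control ones, among its highest scores.

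The values that chose the cells are given first, as a description. Pax2 was at 878 and 880 CPM in the Pax2 cells of the En1/2 CKO libraries, against 1315 and 1222 CPM in the controls. In all other kept cells Pax2 was at 81.3 and 112 CPM, against 216 and 122 CPM. Nhlh2 was at 1014 and 893 CPM in the En1/2 CKO libraries and at 609 and 1265 CPM in the controls, so that the controls lay on both sides of the mutants. Neurod1 had 756 and 656 CPM in the En1/2 CKO libraries, against 452 and 749 CPM in the controls. Neurod6 had 255 and 229 CPM, against 195 and 278 CPM, and Nanos1 had 126 and 134 CPM, against 69.7 and 189 CPM. For these 4 genes control replicate 1 was the lowest of the libraries and control replicate 2 the highest or, for Neurod1, close below the highest. Scx had 92.4 and 82.7 CPM in the En1/2 CKO libraries and 70.4 and 66.0 CPM in the controls, which did not overlap.

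**Figure D1:**
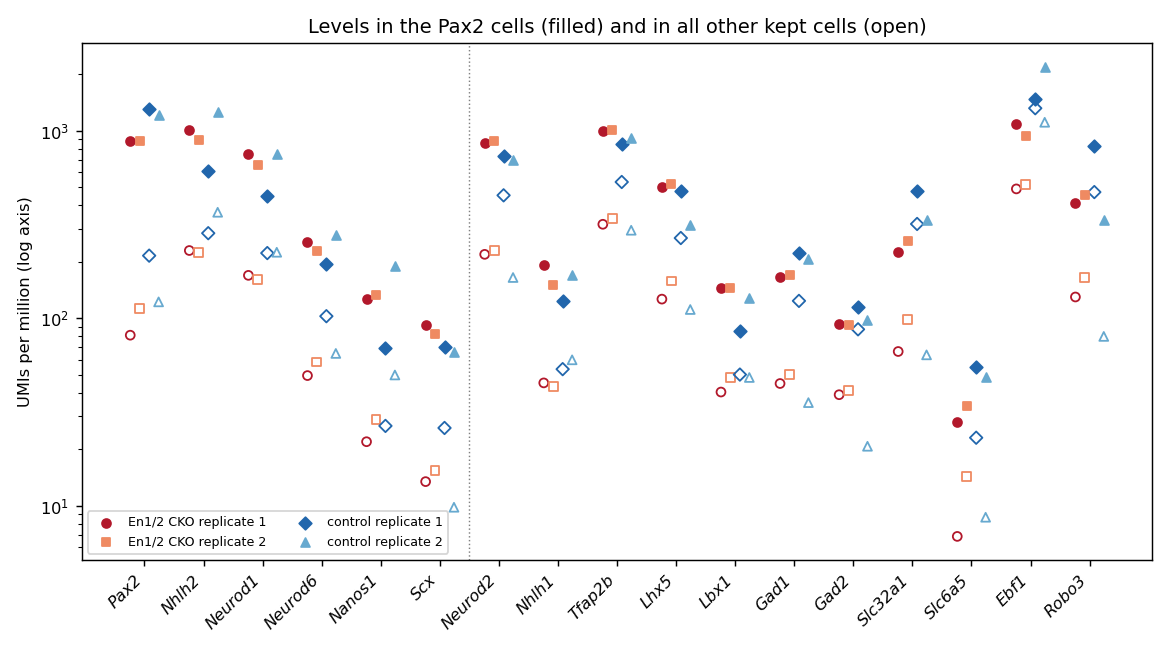
CPM (log axis) of 17 genes in each library, in the Pax2 cells (filled symbols) and in all other kept cells (open symbols). The 6 genes left of the dotted line chose the cells; right of it, Neurod2, Tfap2b, Lhx5 and Gad1 were higher in the Pax2 cells of every library than in its other cells, and Ebf1 lay nearest to the other cells in control replicate 1.

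Most Pax2 cells carried more than 1 second gene where they were read deeply. The median sum over the 5 second genes was 9 and 8 UMIs in the En1/2 CKO libraries, against 2 and 6 UMIs in the controls. Only 1 of the 5 genes was detected in 13.1% and 18.0% of the En1/2 CKO Pax2 cells, against 52.5% and 17.9% of the control ones, and 4 of the 5 were detected in 26.3% and 21.5%, against 2.86% and 10.4%. Nhlh2 was the second gene most often seen, with a UMI in 90.6% and 87.5% of En1/2 CKO Pax2 cells, against 64.1% and 94.0% of control ones. Neurod1 followed with 82.5% and 76.5%, against 50.8% and 68.7%, then Neurod6 with 56.3% and 49.6%, against 30.3% and 42.5%. Nhlh2 and Neurod1 were found together in 74.4% and 67.1% of En1/2 CKO cells, against 28.2% and 64.9% of control cells, and cells with neither made up 1.29% and 3.17%, against 13.3% and 2.24%.

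With each Pax2 cell, chosen at full depth, thinned to 1000 UMIs, the libraries lay closer together for Nhlh2 and Neurod1. Nhlh2 was then seen in 62.8% and 57.5% of En1/2 CKO Pax2 cells, against 47.6% and 67.9% of control ones, and Neurod1 in 50.2% and 45.5%, against 34.8% and 47.3%. Counts in cells of another type give a background for such shares, and whether it comes from free RNA was not tested. Among cells with microglial or macrophage markers, which should lack these genes, at least 1 UMI of the second genes was found in 32.8% and 40.3% in the En1/2 CKO libraries, against 55.2% and 32.8% in the controls, and after thinning in 7.94% and 19.1%, against 28.6% and 14.5%. The median depth of those cells was 4535 and 2303 UMIs, against 3263 and 3379 UMIs. Thinned Pax2 cells had at least 1 of the second genes in 87.3% and 83.3%, against 82.1% and 85.5%. These cells were chosen at full depth for at least 1 such UMI, so that the choice raises their shares. The microglia or macrophages were not so chosen. Applied after thinning, the rule took 62.5% of non-dividing cells with at least 2 Pax2 UMIs in control replicate 1. The share was 87.2% in En1/2 CKO replicate 1, and the remaining libraries lay between these values. Cells that entered on 1 UMI of a second gene numbered 51 of 778 and 65 of 599 in the En1/2 CKO libraries, against 271 of 699 and 11 of 134 in the controls, the largest part in control replicate 1.

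**Figure D2:**
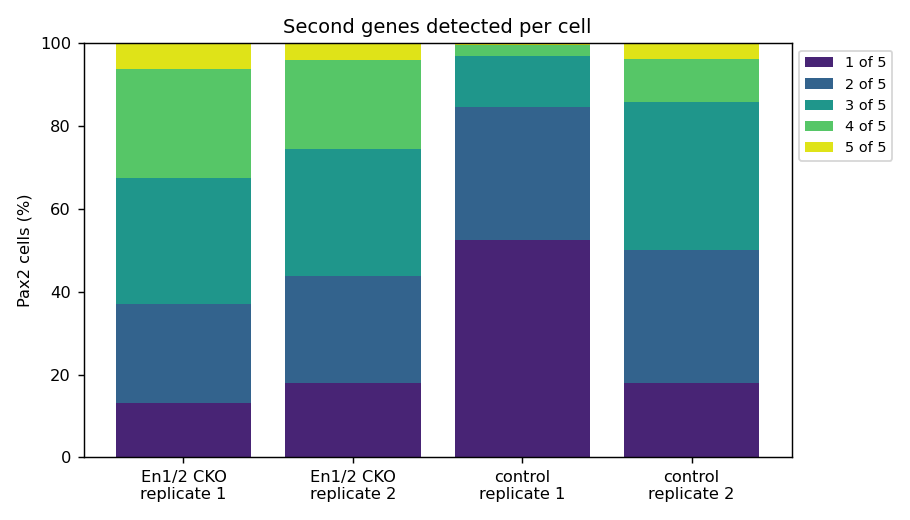
Share of Pax2 cells (vertical axis, percent) in which 1, 2, 3, 4 or 5 of the second genes Neurod1, Neurod6, Nanos1, Nhlh2 and Scx had a UMI, by library. Cells with 1 gene made up 52.5% in control replicate 1 and between 13.1% and 18.0% in the other libraries.

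Tfap2b, a marker the rule did not use, was read just inside and just outside each limit. In the cells with exactly 2 Pax2 UMIs, Tfap2b was at 973 and 941 CPM in the En1/2 CKO libraries and at 799 and 853 CPM in the controls. In the cells that met the other limits but had 1 Pax2 UMI, it was at 867 and 868 CPM, against 744 and 668 CPM. Those cells outside numbered 367 and 545 in the En1/2 CKO libraries, against 1382 and 114 in the controls, more than the 248 and 216, against 476 and 54, just inside in each library. Cells with exactly 1 UMI of the second genes had Tfap2b at 773 and 738 CPM in the En1/2 CKO libraries, against 712 and 355 CPM in the controls, and those with none at 247 and 475 CPM, against 689 and 711 CPM. With exactly 2 UMIs of the dividing-cell genes Tfap2b was at 1002 and 756 CPM, against 690 and 482 CPM, and with 3 it was at 536 and 612 CPM, against 464 and 505 CPM, from 9 and 14 cells, against 3 and 2 cells. Tfap2b was thus lower outside than inside in every library at the Pax2 limit, in both En1/2 CKO libraries and control replicate 1 at the second-gene limit, and in all libraries but control replicate 2 at the limit on dividing cells. Cells set aside because more than 2 UMIs of the dividing-cell genes were found numbered 90 and 110, against 37 and 34, and had median depths of 10572 and 8595 UMIs, against 3372 and 4165 UMIs.

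The label of interneuron precursors was set against markers outside the rule. Tfap2b, an AP-2 factor of GABAergic interneurons, had 992 and 1009 CPM in the Pax2 cells of the En1/2 CKO libraries and 854 and 921 CPM in those of the controls, against 317, 340, 533 and 295 CPM in all other kept cells of the same libraries. Lhx5, a LIM-homeobox factor of GABAergic lineages, had 502 and 520 CPM, against 476 and 316 CPM in the controls. Gad1, which makes GABA, had 166 and 170 CPM, against 223 and 207 CPM, and Slc32a1, the vesicular transporter of GABA and glycine, 227 and 257 CPM, against 476 and 336 CPM. Slc6a5, the neuronal glycine transporter, had 28.1 and 33.9 CPM, against 54.7 and 48.8 CPM. Lbx1, a homeobox factor known from inhibitory neurons of the dorsal hindbrain and spinal cord, had 145 and 146 CPM, against 85.4 and 129 CPM. Lbx1 is not one of the 11 listed interneuron markers and was added to them. Each of these 6 genes was higher in the Pax2 cells than in all other kept cells of every library, by 0.56 to 2.25 on the log2 scale with 10 CPM added. The listed Lhx1, Gad2 and Tfap2a are not compared singly here. The 10 listed markers other than Pax2 summed to 2494 and 2490 CPM, against 2598 and 2501 CPM. In the other cells they summed to 797 and 917 CPM, against 1633 and 777 CPM. Of the 11 interneuron markers, Sall3 and Npy stayed low, with Npy at no more than 1.498 CPM in any library.

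Markers of other neurons gave a mixed picture. Slc17a6, the vesicular glutamate transporter of glutamatergic neurons, had 3 UMIs in each En1/2 CKO library and 0 in both controls, where a count of 0 allows up to 2.25 and 8.60 CPM. Atoh1 and Barhl1, which define granule cell precursors, reached at most 22.9 and 19.5 CPM, and each was lower than in the other cells of every library. Neurod2, a bHLH factor of the same family that is well known from glutamatergic neurons, was nevertheless at 861 and 877 CPM in the En1/2 CKO libraries, against 733 and 700 CPM in the controls, and was found in 57.7% and 55.7% of thinned Pax2 cells, against 50.4% and 44.3%. The Purkinje cell definers Skor2 and Calb1 were at no more than 7.49 CPM. Ebf1, an early B-cell factor expressed by young Purkinje cells, was at 1093 and 933 CPM, against 1479 and 2194 CPM, and in all other kept cells at 490 and 515 CPM, against 1320 and 1111 CPM. Skor1, a corepressor also listed with Purkinje cells, had 204 and 192 CPM, against 179 and 215 CPM. The 13 granule lineage genes summed to 2825 and 2761 CPM, against 2516 and 2897 CPM. In the other cells they summed to 1836 and 1630 CPM, against 2159 and 1967 CPM. The 12 Purkinje genes summed to 1611 and 1429 CPM, against 2014 and 2713 CPM. In the other cells they summed to 926 and 927 CPM, against 1906 and 1539 CPM. The Pax2 cells thus held inhibitory markers with Atoh1, Barhl1, Skor2 and Calb1 low, while both list sums, which include Neurod2 or Ebf1, exceeded the other cells in every library.

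Genes of other cell types were also counted in the Pax2 cells, at levels that differed by library, and their part in the results was not tested. Summed over 8 microglial markers the Pax2 cells had 2.97 and 101.0 CPM in the En1/2 CKO libraries, against 29.2 and 175 CPM in the controls, where the other cells had 432 and 1198 CPM, against 629 and 1594 CPM. Summed over 14 radial progenitor genes they had 2418 and 3101 CPM, against 2831 and 1457 CPM, and the other cells 11861 and 11455 CPM, against 5695 and 13941 CPM. The 6 erythroid genes summed to 526 and 833 CPM, against 3488 and 45.9 CPM. The 7 choroid plexus genes summed to 2383 and 1211 CPM, against 59.9 and 34.4 CPM, and in the other cells to 15549 and 4374 CPM, against 55.4 and 37.0 CPM. Ptf1a itself, whose Cre marks the lineage, was at 34.0 and 29.3 CPM, against 16.5 and 22.9 CPM, and the TdTom reporter at 592 and 693 CPM, against 554 and 737 CPM.

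Other genes were among the most raised in Pax2 cells over all other kept cells, by the smallest of the 4 within-library ratios. Because the cells were chosen from these counts, this is a description without a test, and the comparison with all other cells was added after the data were seen. Nhlh1, the close relative of Nhlh2, was at 192 and 151 CPM in the En1/2 CKO libraries, against 124 and 169 CPM in the controls, and exceeded the other cells by 1.07 to 1.87 on the log2 scale. Klhl35, a kelch-like protein, exceeded them by 0.90 to 2.00, Zbtb16, a zinc-finger repressor, by 0.89 to 1.46, and Robo3, a guidance receptor of migrating and commissural neurons, by 0.80 to 1.94. Robo3 itself was at 412 and 454 CPM, against 829 and 336 CPM. Elavl4 and Scrt1, an RNA-binding protein and a repressor of young neurons, exceeded the other cells by 0.70 to 1.79 and by 0.73 to 1.84. At the other end, C1qb of microglia and Apoe of glia and microglia were lower by at least 2.98 and 2.82, and Sparc, a matrix protein of glia and vessels, by at least 2.13.

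Within the Pax2 cells the genes arranged themselves along one shared axis. A principal component analysis was run in each library on the Pax2 cells of at least 1000 UMIs, and its first component held 3.73% and 2.86% of the variance of 800 variable genes in the En1/2 CKO libraries, against 1.41% and 2.79% in the controls. Of the 40 genes at each end, 18 recurred in at least 3 libraries at the end that held Ccnd2, the D-type cyclin of neural precursors, and 20 at the end that held Unc5c, a netrin receptor. The Ccnd2 end held the proneural bHLH factors Neurog1 and Neurog2, Insm1, a zinc-finger factor of newborn neurons, Gadd45g, a growth-arrest gene, and Pax3 and Lhx1. The Unc5c end held Gad1, the enzyme that makes GABA, Pnoc and Cartpt, which encode neuropeptide precursors, Mapt, the tau protein, Grin2b, an NMDA receptor subunit, and the bHLH and zinc-finger factors Bhlhe22 and Prdm8. The ends were read from the same cells, so that the differences below are descriptions.

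A cell was put on the side whose summed genes had more UMIs, with Klhl35, Igfbp5, Glra2 and the rule genes left out of the sums. Ccnd2 was at 2089 and 2218 CPM on its side in the En1/2 CKO libraries and at 1282 and 3987 CPM in the controls, and on the Unc5c side at 248 and 416 CPM, against 259 and 530 CPM. Cartpt was at 234 and 158 CPM, against 180 and 134 CPM, on the Unc5c side, and at no more than 16.7 CPM on the Ccnd2 side. Ptf1a, which was not in the sums, was at 53.6 and 43.5 CPM, against 28.8 and 37.3 CPM, on the Ccnd2 side and at 5.48 and 9.61 CPM, against 7.05 and 11.2 CPM, on the other.

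The genes of the rule fell at different places on this axis. The log2 ratio of the Unc5c side over the Ccnd2 side (10 CPM added) of Neurod1 was 1.11 and 1.06 in the En1/2 CKO libraries, against 0.47 and 0.55 in the controls, and that of Neurod6 was 1.21 and 1.02, against 0.63 and 1.08. Neurod2 had ratios of 0.74 and 0.67, against 0.52 and 0.65. Nhlh2 was nearly equal on both sides, with ratios of -0.17 and -0.22, against -0.19 and 0.00, and Pax2 had 0.29 and 0.15, against 0.11 and 0.09. Nhlh1 was higher on the Ccnd2 side, with -1.09 and -0.98, against -1.34 and -0.29, and Scx had -1.10 and -0.44, against -1.19 and -0.03, so that it was nearly equal on both sides in control replicate 2. The 3 Neurod genes thus had their higher levels with the GABA and peptide genes, and Nhlh1 with the proneural genes, in all 4 libraries. For Nhlh1 the difference in control replicate 2 was small and rested on 31 UMIs on the Ccnd2 side and 28 on the Unc5c side.

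**Figure D3:**
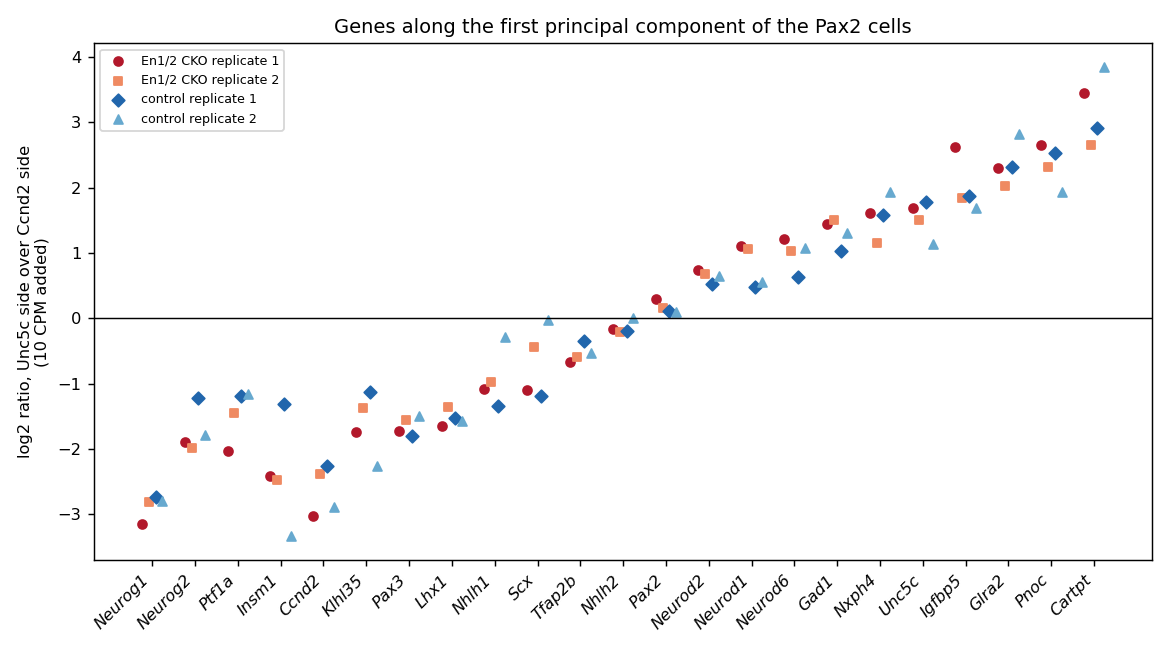
Log2 ratio of the level on the Unc5c side over that on the Ccnd2 side (vertical axis, 10 CPM added) for 23 genes, 1 symbol per library. Neurog1 lies between -3.15 and -2.74 and Cartpt between 2.65 and 3.85, with Nhlh2 and Pax2 near 0 and Neurod1 and Neurod6 above 0 in every library.

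The share of Pax2 cells on the Ccnd2 side was 53.5% (95% Clopper-Pearson interval 49.9% to 57.0%) and 54.3% (50.2% to 58.3%) in the En1/2 CKO libraries, against 41.1% (37.4% to 44.8%) and 44.0% (35.5% to 52.9%) in the controls. Both En1/2 CKO libraries lay above both controls, with a difference of 11.3 percentage points. The exact 2-sided permutation test of the 4 libraries gave p = 0.333, the smallest it can give. With the cells thinned to 1000 UMIs before the rule was applied, the shares were 45.3% and 43.1%, against 42.2% and 40.5%, a difference of 2.81 percentage points at the same exact p. At equal depth the difference was smaller and the order within each genotype turned round. The En1/2 CKO libraries lay above the controls only narrowly, with 43.1% of 144 cells in En1/2 CKO replicate 2 and 42.2% of 277 cells in control replicate 1. The thinned shares on the Unc5c side were 51.4% and 47.9%, against 52.0% and 59.5%. No interval was taken for the thinned shares, so whether a difference remains at equal depth is not settled.

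Whether the shares of Pax2 cells among kept cells overlapped between the genotypes depended on the treatment of depth. Pax2 cells were 14.9% (13.9% to 15.9%) and 7.45% (6.88% to 8.05%) of kept cells in the En1/2 CKO libraries, against 6.72% (6.25% to 7.22%) and 11.4% in the controls. The means were 11.2% ± 5.24 in En1/2 CKO and 9.05% ± 3.30 in control libraries (SD, n = 2 each), which overlapped, with p = 0.667 in the exact 2-sided permutation test. Among cells of at least 2000 UMIs the shares were 23.3% and 19.3%, against 15.46% and 14.6%, which did not overlap (exact permutation p = 0.333). With every cell thinned to 1000 UMIs they were 5.21% and 3.05%, against 3.64% and 4.14%, which overlapped again (exact permutation p = 1). In sorted cells a share also depends on how many cells of other types were sorted. Intervals cover counting error only.

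**Figure D4:**
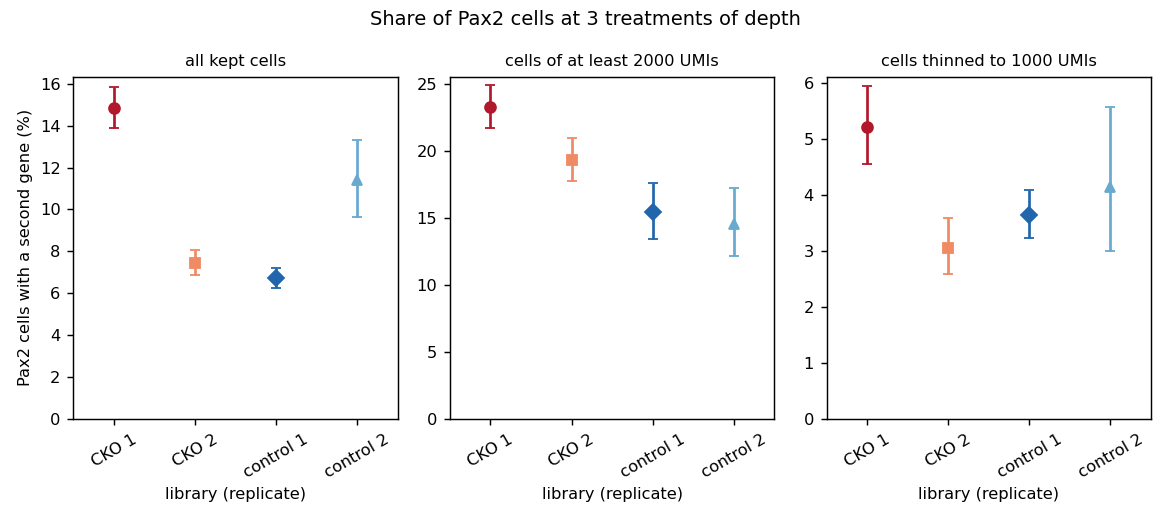
Pax2 cells with a second gene as a percentage of all kept cells, of cells with at least 2000 UMIs and of cells thinned to 1000 UMIs, with 95% Clopper-Pearson intervals, by library. The En1/2 CKO libraries lie above the controls only in the middle panel, at 23.3% and 19.3%, against 15.46% and 14.6%.

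The targeted genes were examined next. En2 was at 33.0 and 17.5 CPM in the Pax2 cells of the En1/2 CKO libraries, against 118 and 88.9 CPM in the controls, with no overlap. Its log2 fold change was -2.06 with a standard error (SE) of 0.33. En1 was at 92.9 and 69.4 CPM, against 121 and 189 CPM, with a log2 fold change of -0.90 (SE 0.31). With a library left out it ranged from -1.27 to -0.51. On the Unc5c side En1 was at 91.1 and 60.6 CPM, against 148 and 295 CPM, and on the Ccnd2 side at 92.0 and 75.6 CPM, against 89.8 and 80.9 CPM, where the groups overlapped. Whether the sides differ was not tested. The exons between the lox sites are not given in the sources used here, so that these 3' counts do not measure recombination. edgeR's quasi-likelihood test with Benjamini-Hochberg adjustment gave an adjusted p of 0.628 for both genes, and DESeq2 gave an adjusted p of 0.0235 for En2.

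No gene passed the genotype test in Pax2 cells. Of 10376 genes tested in the summed counts, edgeR called 0 (0.0%) at an adjusted p of 0.05, and the smallest adjusted p was 0.536. Before adjustment, 309 genes with higher values (2.98%) and 493 with lower values (4.75%) had a p under 0.05. DESeq2 called 3 (0.0289%), namely Igfbp5, Gm10076 and En2. The En1/2 CKO libraries lay above both controls for 20.7% of the tested genes and below both for 17.3%. The spread was unequal, with a coefficient of variation of 0.077 between the En1/2 CKO libraries and of 0.319 between the controls. Without control replicate 1 the test called 435 genes, and without control replicate 2 it called 1406, because the remaining control is then assumed to vary as little as the mutants. The genes below are therefore given by their values, as those with the smallest unadjusted p among genes of at least 20 CPM whose groups did not overlap.

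Igfbp5, which encodes a binding protein for insulin-like growth factors, had 144 and 149 CPM in the En1/2 CKO libraries, against 454 and 519 CPM in the controls. Each genotype was tight, at 146 ± 3.04 CPM in En1/2 CKO and 487 ± 46.1 CPM in control (SD, n = 2 each), with a log2 fold change of -1.75 (SE 0.25, edgeR adjusted p = 0.609, DESeq2 adjusted p = 0.0021). Since Igfbp5 belongs to the Unc5c end, it was examined on each side. It was at 39.8 and 66.9 CPM, against 181 and 236 CPM, on the Ccnd2 side, and at 297 and 265 CPM, against 691 and 786 CPM, on the Unc5c side. After thinning, an Igfbp5 UMI was found in 12.2% and 11.2% of En1/2 CKO Pax2 cells, against 29.9% and 27.5% of control ones. In microglia or macrophages the thinned share was 1.59% and 0.81%, against 4.396% and 1.61%. In all other kept cells Igfbp5 was at 77.0 and 79.7 CPM, against 278 and 125 CPM, so that the order of the genotypes was not confined to Pax2 cells.

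Other genes that were lower in both En1/2 CKO libraries included the uncharacterised 1500004A13Rik, with 25.9 and 32.0 CPM, against 99.6 and 97.5 CPM (log2 fold change -1.78, SE 0.23). Pianp, a membrane protein of neurons, had 5.67 and 7.80 CPM, against 32.2 and 20.1 CPM (-2.11, SE 0.36). Tmem14c, a mitochondrial transporter of the haem pathway, had 38.4 and 22.6 CPM, against 86.9 and 94.7 CPM, and Npc1, a cholesterol transporter of the late endosome, 21.9 and 20.7 CPM, against 50.2 and 43.0 CPM. Trim59, AC149090.1 and Gm21887 completed the list, with log2 fold changes of -1.27, -1.36 and -1.41. Hba-a2, an alpha-globin gene whose reads may be shared with its near-identical copy Hba-a1, was at 3.51 and 1.17 CPM, against 219 and 5.74 CPM. The haemoglobin genes together were at 594 and 908 CPM, against 4672 and 45.9 CPM, and their part in the results was not tested.

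Among genes higher in both En1/2 CKO libraries, Bcl11b, a zinc-finger factor of neuronal differentiation, had 72.7 and 63.6 CPM, against 26.2 and 14.3 CPM (log2 fold change 1.58, SE 0.28). It was at 109 and 99.0 CPM, against 31.0 and 11.2 CPM, on the Unc5c side and at 49.9 and 38.1 CPM, against 22.0 and 18.7 CPM, on the Ccnd2 side. Ppp1r14a, an inhibitor of myosin phosphatase, had 30.8 and 28.1 CPM, against 7.49 and 5.74 CPM (2.06, SE 0.35). Dusp26, a phosphatase, had 108 and 137 CPM, against 56.2 and 40.2 CPM, and Crabp2, a retinoic acid-binding protein, 71.6 and 65.1 CPM, against 28.5 and 31.6 CPM. Btg2, an antiproliferative gene of neurogenic divisions, had 220 and 252 CPM, against 97.4 and 34.4 CPM (1.70, SE 0.38, and from 1.32 to 2.70 with a library left out). Its thinned share of 18.5% and 20.8% in En1/2 CKO Pax2 cells, against 8.85% and 3.05% in control ones, stood beside 12.7% and 12.6%, against 6.59% and 3.23%, in microglia or macrophages. How much of the Btg2 in either class is free RNA was not tested.

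Nol12, Fam241b, Gtf3a, Gm10076, Gm10260, Rps9 and Ttr were the other genes taken in this direction. Rps9, a ribosomal protein, had 1493 and 1493 CPM, against 696 and 605 CPM (log2 fold change 1.18, SE 0.25), and Gm10076, a predicted gene, 189 and 528 CPM, against 62.9 and 66.0 CPM. Ttr, transthyretin of the choroid plexus, was at 2333 and 1166 CPM, against 29.2 and 0 CPM. In the other cells of the same libraries it was at 15332 and 4293 CPM, against 11.2 and 5.29 CPM, and whether its UMIs in Pax2 cells come from free RNA was not tested. Against the floor of 3 counts in control replicate 2, 8.60 CPM, no fold is given for that library. Klhl35, which was examined because of its place at the Ccnd2 end, had 469 and 580 CPM, against 308 and 215 CPM (0.98, SE 0.27). On the Ccnd2 side it was at 658 and 777 CPM, against 434 and 386 CPM, and on the Unc5c side at 189 and 292 CPM, against 193 and 72.5 CPM, where the groups overlapped.

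**Figure D5:**
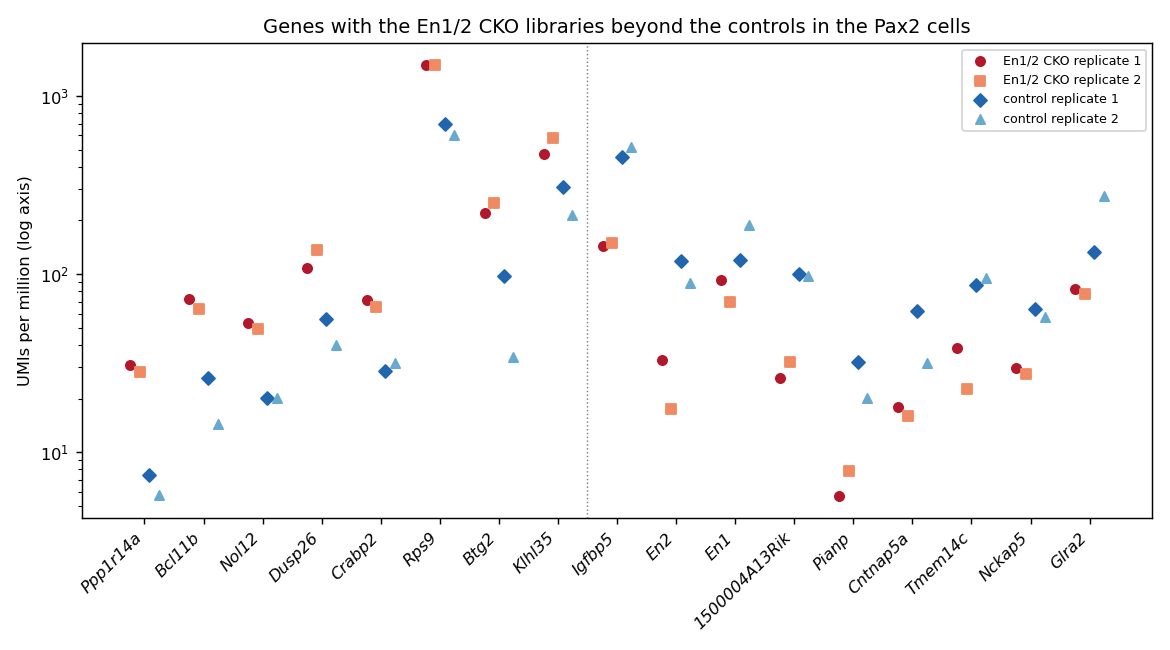
CPM (log axis) in the Pax2 cells of each library for 17 genes, those left of the dotted line higher and those right of it lower in both En1/2 CKO libraries. Igfbp5 had 144 and 149 CPM in En1/2 CKO, against 454 and 519 CPM in control, and no gene shown passed the edgeR test after adjustment.

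Several of these genes lie on the chromosomes of the floxed alleles, which only the En1/2 CKO embryos carried. Cntnap5a, a contactin-associated protein, lies 4.02 Mb and Nckap5 lies 5.31 Mb from En1 on chromosome 1, and both were lower, with 17.8 and 16.0 CPM, against 62.2 and 31.6 CPM, and with 29.7 and 27.3 CPM, against 63.7 and 57.4 CPM. Btg2 lies 13.5 Mb and Igfbp5 lies 47.7 Mb from En1, and Gtf3a lies 119 Mb from En2 on chromosome 5. For these genes the mutation and any DNA of the same chromosome that came with the floxed alleles cannot be told apart.

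The lists of related genes were read as counts beside the same counts over all tested genes. Of those 10376 genes, 4789 had a positive and 5587 a negative log2 fold change, with a median of -0.04. In GABA and glycine transmission 0 of the 11 tested members passed, 10 had a negative log2 fold change, and 8 were lower in both En1/2 CKO libraries than in both controls, where 17.3% of all tested genes were, with a list median of -0.37. Among the 8 were Gad1, Gad2, Slc32a1, Slc6a5, Slc12a2, Glra2 and Gphn. Slc6a5 had a log2 fold change of -0.77 (SE 0.24) and Slc32a1 one of -0.76 (SE 0.25), both with an edgeR adjusted p of 0.628. Glra2, a glycine receptor subunit, had 82.7 and 77.6 CPM, against 133 and 275 CPM (-1.32, SE 0.37). Within the Ccnd2 side Gad1 was at 92.9 and 92.9 CPM, against 137 and 112 CPM, and within the Unc5c side at 270 and 281 CPM, against 289 and 290 CPM.

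In the synaptic list 0 of 27 tested members passed and 20 had a negative log2 fold change, with a median of -0.37. Of the 27, 11 were lower in both En1/2 CKO libraries, where 17.3% of all tested genes were, among them Nrxn3, Gria2, Gabra2 and Syp. Nrxn3, a presynaptic adhesion protein, had 1159 and 1161 CPM, against 2223 and 1552 CPM. The whole list summed to 2823 and 2766 CPM in the Pax2 cells, against 4396 and 3545 CPM. In all other kept cells it summed to 1546 and 1731 CPM, against 3319 and 1746 CPM. The order of the genotypes was thus not confined to Pax2 cells, though replicates 2 of the 2 genotypes lay close together in the other cells. The early neuron genes did not share this, with 11 of 20 tested members positive and a median of 0.06, and the summed level was 32498 and 34410 CPM, against 32190 and 30711 CPM. Gad1 and Grin2b of these lists belong to the Unc5c end, whose side held 44.99% and 43.4% of En1/2 CKO Pax2 cells, against 55.1% and 53.7% of control ones, and the part of that share in the values was not tested.

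The proneural bHLH genes and their partners had 12 of 18 tested members positive, a median of 0.06 and 5 members higher in both En1/2 CKO libraries, namely Ptf1a, Neurog1, Neurog2, Neurod2 and Id1, where 20.7% of all tested genes were. Ptf1a had a log2 fold change of 0.83 (SE 0.30) and Neurog1 one of 0.40 (SE 0.23). In cell cycle exit and G1, 7 of 16 tested members were higher in both En1/2 CKO libraries, among them Btg2, Cdkn1a, Ccnd3, Cdk4 and Cdk6, with a median of 0.04, while Ccnd2 had 1339 and 1468 CPM, against 720 and 2128 CPM. In the p53 and apoptosis list 8 of 17 were higher in both, including Cdkn1a, Bax and Bbc3, with a median of 0.20. The Notch pathway was near balance, with 11 of 22 tested members positive and a median of 0.02. The S phase genes had 6 of 14 positive and a median of -0.02, with no member outside the range of the other genotype.

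Among the markers of interneurons with Pax2, which chose the cells, left out, 0 of 9 tested members passed, 6 had a negative log2 fold change and the median was -0.23. The 10 markers of maturing interneurons had 8 tested, 5 of them negative, with a median of -0.24. Only Igfbp5 and Kit were lower in both En1/2 CKO libraries, while Calb2 and Pvalb were higher in both. Over all tested genes 17.3% were lower in both and 20.7% higher in both. Sst and Cartpt, peptide genes of later interneurons, were at 88.9 and 108 CPM, against 78.7 and 120 CPM, and at 99.4 and 74.1 CPM, against 103 and 68.8 CPM, which overlapped. The Purkinje list had 6 of 10 negative and a median of -0.29, with Foxp2, Ebf1, Pcp4 and Dab1 lower and Bcl11b higher in both En1/2 CKO libraries. In the granule list Neurod2 and Reln were higher in both, and the median was 0.07. The radial progenitor list had 11 of 14 positive and a median of 0.35. The patterning factors had 8 of 15 positive and a median of 0.10, with Meis1 higher and En1 and En2 lower in both En1/2 CKO libraries.

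In migration and guidance, 9 of 22 tested members had a positive log2 fold change and the median was -0.13. Reln and Epha4, a secreted guidance protein and an ephrin receptor, were higher in both En1/2 CKO libraries, and Unc5c, Dab1, Nrp2 and Astn1 were lower in both. Over all tested genes 20.7% were higher in both and 17.3% lower in both. Unc5c had 297 and 253 CPM, against 371 and 442 CPM (log2 fold change -0.58, SE 0.25), while Dcc, the other netrin receptor class, had 505 and 491 CPM, against 490 and 559 CPM, which overlapped. Stress and immediate early genes had 5 of 7 tested members positive and a median of 0.24, with Fos, Junb and Ier2 higher in both En1/2 CKO libraries. No member of either list passed the edgeR test.

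The genotype difference in Pax2 cells was then set against that in the other non-dividing Pax2 cells, in 1 model with the library as a block. Of 6685 genes, edgeR's quasi-likelihood test called 3 after adjustment (0.0449%), Hbb-bs, Sparc and Hba-x, all with a more negative genotype difference in the Pax2 cells with a second gene. The other cells held 60678 and 105313 UMIs in the En1/2 CKO libraries, against 311867 and 12655 UMIs in the controls, so that the test rests on few counts. It called 0 genes without either En1/2 CKO library, with no low-count filter and with at least 3 Pax2 UMIs, and without control replicate 1 the interaction of Sparc was 0.12. Igfbp5 had an interaction of -0.98 (SE 0.50), Btg2 one of 1.49 (SE 0.60) and En2 one of -0.91 (SE 0.77), none of which passed. Of the genes with the opposite sign, Meis2 and Racgap1 had interactions of 1.99 (SE 0.64) and 2.61 (SE 0.87), which did not pass either. A p above the threshold does not show that the classes respond alike.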

How the data were processed

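Sorted tdTomato-positive cells of E15.5 cerebella were profiled in 2 En1/2 CKO and 2 control libraries. The deposited matrices hold the authors' UMI counts, whole numbers for each gene in each barcode and not normalised, made with Cell Ranger 6.1.0 against mm10 per the submitters' processing notes, for 32286 genes, of which 32158 matched GENCODE vM21. The barcode and gene files are text. Libraries held 5305154 to 21021428 UMIs, which limits precision. Whether intron reads were counted is not given in the sources used here. Per the labels, embryos were pooled and replicate experiments were run, so p-values measure the spread between pools.

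Cells and gene lists were chosen with earlier results of these data known. Counts of the Pax2 cells were summed per library and compared with edgeR 4.0.16 (TMM, filterByExpr, quasi-likelihood F test, adjusted p threshold 0.05, Benjamini-Hochberg over all tested genes), and each SE is the log2 fold change over the root of F. A model with library terms tested whether the genotype difference was unlike that in other Pax2 cells (at least 2 Pax2 UMIs, second-gene sum of 0). Shares were compared with an exact permutation test over libraries. Levels are CPM of summed counts. Doublets were scored with Scrublet (scanpy 1.11.5), and in 1 alternative the highest 0.8% of scores per 1000 barcodes were left out; they were otherwise kept. Named genes were the Engrailed and rule genes, up to 12 per direction with at least 20 CPM and no overlap of the groups, ordered by unadjusted p, and highest members of each list. The principal component axis, its sides, Klhl35 and the genes named for it were picked with their values in view. Coordinates come from GENCODE vM21 on GRCm38. The tests were tried on simulated data.

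The alternatives were RLE size factors, DESeq2 1.42.0, no low-count filter, a minimum of 1000 genes with a mitochondrial limit of 5%, doublets left out, at least 2 second-gene UMIs, at least 3 Pax2 UMIs, no dividing-cell UMI, thinning, the replicate number as a block and each library left out. Cells of at least 2000 UMIs, each side of the axis, and a fit without ribosomal, mitochondrial and haemoglobin genes and Malat1 were added after the data were seen.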

Additional observations from a re-analysis of the deposited data

Results flagged for a closer look

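The genotype difference of 3 genes was unlike that in the other non-dividing Pax2 cells, by edgeR's quasi-likelihood test of the interaction with Benjamini-Hochberg adjustment. Hbb-bs, a beta-globin gene, had an interaction of -2.39 (log2, SE 0.50, adjusted p = 0.012), with 119 and 128 CPM in the Pax2 cells of the En1/2 CKO libraries, against 348 and 17.2 CPM in the controls, and with 313 and 418 CPM, against 196 and 0 CPM, in the other Pax2 cells. Sparc, a matrix protein, had an interaction of -2.17 (SE 0.47, adjusted p = 0.012), with 91.3 and 93.2 CPM, against 156 and 48.8 CPM, in the Pax2 cells and 560 and 703 CPM, against 167 and 632 CPM, in the other Pax2 cells. Hba-x, an embryonic alpha-globin gene, had an interaction of -2.43 (SE 0.57, adjusted p = 0.044), with 68.1 and 74.1 CPM, against 1179 and 0 CPM, in the Pax2 cells and 115 and 674 CPM, against 1119 and 0 CPM, in the other Pax2 cells. The other Pax2 cells numbered 28 and 78, against 237 and 8, and for each of the 3 genes the control libraries lay far apart. No gene was called without En1/2 CKO replicate 1, without En1/2 CKO replicate 2, with no low-count filter or with at least 3 Pax2 UMIs. Without control replicate 1 the interaction of Sparc was 0.12, the other direction.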

How the results depend on the processing

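The count of genes past the threshold in Pax2 cells was 0 by edgeR and stayed at 0 with RLE size factors, with doublets left out, with at least 2 second-gene UMIs, at least 3 Pax2 UMIs or no dividing-cell UMI, in cells of at least 2000 UMIs, on either side of the axis and without ribosomal, mitochondrial and haemoglobin genes and Malat1. DESeq2 called 3, no low-count filter 85, the stricter cell filter 1 and sums thinned to the smallest library 1, and leaving out a library gave 4 to 1406. With the replicate number as a block 12 were called. Deviations of same-numbered libraries had a correlation of -0.049 over 10376 genes, and the labels do not say that equal numbers mark one experiment, so the samples were treated as sharing only a number. All 27 genes followed (En1, En2, Klhl35, Glra2 and those taken by unadjusted p) kept their direction in all 476 alternative values. The groups of these genes did not overlap in the same libraries, and most were chosen for that. Their direction could therefore hardly turn, and no conclusion is drawn from it. The interaction count was 3; it was 0 with no low-count filter and with at least 3 Pax2 UMIs, 11 with the stricter cell filter, 8 with at least 2 second-gene UMIs, and 0 to 19 with a library left out. Meis2 had an interaction of -0.74 with at least 3 Pax2 UMIs, and with a library left out Sparc ranged from -2.48 to 0.12 and Racgap1 from -6.97 to 9.46. The difference in the share of Pax2 cells was 2.10 percentage points, 7.82 with the stricter cell filter, where the genotypes did not overlap (exact permutation p = 0.333), and -1.60 to 5.81 with a library left out. The replicate block also gave 2.10, as the mean of 8.14 within replicate 1 and -3.94 within replicate 2. Among non-dividing Pax2 cells it was 7.98, 18.4 with at least 2 second-gene UMIs, and -1.86 to 17.8 with a library left out, and within replicates 21.8 and -5.89. The cause of these shifts was not tested. Depth limits control replicate 2 most, whose Pax2 cells held 348637 UMIs.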
